A study of Mus musculus with 16 samples.

Results

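Calcineurin is a phosphatase that is switched on by calcium, and the genes described here encode its subunits, its inhibitors, its anchor at the Z-disc and the NFAT transcription factors that it activates. The 10 members were taken by symbol from the gene table of a mouse heart RNA-Seq experiment: the inhibitors Rcan1 and Rcan2, the anchor Myoz2, the catalytic subunits Ppp3ca and Ppp3cb, the regulatory subunit Ppp3r1, and the factors Nfatc1, Nfatc2, Nfatc3 and Nfatc4. Each symbol matched a single row, giving 10 of 55487 genes in the table, and all 10 passed the filter on low counts that left 18275 genes for testing. RNA came from the apex of the heart of 16 male mice, 4 in each of 4 groups, collected 4 weeks after surgery. The genotypes were control (Ctrl, WT in the labels) and a knockout (KO) of the long noncoding RNA Cardinal made with CRISPR/Cas9. Either genotype was given transverse aortic constriction (TAC), which narrows the aorta and places a pressure load on the left ventricle, or a sham operation without ligation. No restriction of the knockout to a cell type was stated, and the age and strain of the animals were not given in the sources used here.

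When calcium rises, calmodulin binds the catalytic subunit of calcineurin, which then removes phosphates from NFAT proteins and lets them enter the nucleus. There they bind DNA together with partners such as AP-1, GATA and MEF2 factors, and kinases such as GSK3, DYRK and casein kinase 1 send them back to the cytoplasm. In the heart the pathway is known for driving pathological hypertrophy, and the short form of RCAN1 is a widely used readout of its activity because NFAT itself turns on an internal promoter of the gene. Calcineurin activity is set by calcium and by phosphorylation, neither of which RNA counts measure.

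Total counts ranged from 53169437 to 79404714 per library, and mitochondrial genes took 21.9% to 28.8% of them. Cardinal (Gm12295) was at 3.54 ± 0.280 CPM (read counts scaled to library size with TMM factors, SD, n = 4) in Ctrl sham and at 0.465 ± 0.119 in KO sham. The library labelled KO TAC 4 went against its label, with Cardinal at 4.55 CPM where the other KO TAC libraries had 0.276 to 0.371. It keeps its label below. Results of the members that rest on it are also given without it, and the 5 pathway lists are given without it as counts of calls. The lists of cell type markers are given only with it. Another library that stood apart was Ctrl TAC 1, where Cardinal was at 8.02 CPM against 2.69 to 3.37 in the other Ctrl TAC libraries. The animal numbers of Ctrl TAC 2, 3 and 4 and of the library labelled KO TAC 4 begin with 25, whereas those of all 12 other libraries begin with 3. What these series of numbers stand for is not given in the labels, and Ctrl TAC 1 is the only Ctrl TAC animal of its series.

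Because the counts are per gene, they add up all transcript starts of a gene, and the promoters of the members whose counts passed a test after TAC are shown first for reference. Windows of 300 bases, from 250 bases before to 50 bases after a transcript start, were held for 8 of the 10 members in the RefSeq table of GRCm38.p6. They were searched on both strands for GGAAA, the core of the NFAT site, and for TGAGTCA, the AP-1 site, which do not overlap in the windows shown. Matches are in capitals, and all sequences run 5′ to 3′ on the strand of the gene. Rcan1 lies on the minus strand of chromosome 16 (92391953 to 92470867, GRCm38) and has a window at its distal start (chr16:92466120-92466419) and another at the internal start (chr16:92400029-92400328). The internal window coincides with the start of transcript Rcan1-201, and its 250 upstream bases lie in an intron of the longer transcripts. Distal here means only the start farther upstream, at 92466169. The 250 bases upstream of that start lie in an intron as well. No window was held at the 5′ end of the gene, at 92470867.
Rcan1 distal start: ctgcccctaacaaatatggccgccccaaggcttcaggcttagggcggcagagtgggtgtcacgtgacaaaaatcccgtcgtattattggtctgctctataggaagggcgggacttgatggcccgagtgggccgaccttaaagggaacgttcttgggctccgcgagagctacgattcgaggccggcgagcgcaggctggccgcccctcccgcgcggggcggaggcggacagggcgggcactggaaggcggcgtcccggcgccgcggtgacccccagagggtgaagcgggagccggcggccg
Rcan1 internal start: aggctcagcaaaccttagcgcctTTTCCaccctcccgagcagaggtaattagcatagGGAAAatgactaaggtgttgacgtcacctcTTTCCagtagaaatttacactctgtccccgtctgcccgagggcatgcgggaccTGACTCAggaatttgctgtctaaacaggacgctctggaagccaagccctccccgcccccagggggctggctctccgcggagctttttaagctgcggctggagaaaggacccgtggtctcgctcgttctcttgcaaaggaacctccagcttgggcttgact
The internal window held 3 NFAT cores, 163, 193 and 227 bases upstream of the start, and an AP-1 site 110 bases upstream. The distal window held neither motif. Of 32851 windows of the same length in the table, 61.3% held at least 1 NFAT core, 9.42% at least 3, 5.20% an AP-1 site, and 0.557% at least 3 cores together with an AP-1 site. A match of letters is a description and does not show that a factor binds there.

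Myoz2 (minus strand of chromosome 3, 123006206 to 123035015), Ppp3cb (minus strand of chromosome 14, 20499364 to 20546573) and Nfatc4 (plus strand of chromosome 14, 55823144 to 55833943) have 1 window each, at chr3:123034938-123035237, chr14:20546524-20546823 and chr14:55824545-55824844. They are shown because these 3 genes, with Rcan1, were the members whose counts passed the test in at least 1 comparison of TAC with sham.
Myoz2: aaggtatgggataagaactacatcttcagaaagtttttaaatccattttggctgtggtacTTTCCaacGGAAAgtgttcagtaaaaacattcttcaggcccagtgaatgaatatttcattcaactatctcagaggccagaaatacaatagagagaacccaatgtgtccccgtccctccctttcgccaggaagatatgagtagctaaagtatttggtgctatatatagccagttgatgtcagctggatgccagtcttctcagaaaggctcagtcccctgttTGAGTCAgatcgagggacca
Ppp3cb: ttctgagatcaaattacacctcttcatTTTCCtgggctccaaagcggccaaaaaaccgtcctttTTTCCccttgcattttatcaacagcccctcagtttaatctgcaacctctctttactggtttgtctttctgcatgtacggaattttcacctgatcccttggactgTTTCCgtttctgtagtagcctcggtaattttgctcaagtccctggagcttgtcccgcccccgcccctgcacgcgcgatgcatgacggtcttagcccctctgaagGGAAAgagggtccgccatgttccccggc
Nfatc4: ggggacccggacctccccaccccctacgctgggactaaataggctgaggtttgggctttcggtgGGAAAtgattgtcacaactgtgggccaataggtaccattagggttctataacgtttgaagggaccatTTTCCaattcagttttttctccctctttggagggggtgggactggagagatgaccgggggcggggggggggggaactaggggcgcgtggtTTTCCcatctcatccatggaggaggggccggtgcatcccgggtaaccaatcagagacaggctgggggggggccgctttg
The Myoz2 window held 2 NFAT cores, 182 and 190 bases upstream, and an AP-1 site 31 bases into the transcript, and 26.7% of all windows held at least 2 cores. Ppp3cb, whose counts were lower after TAC, had 4 cores, 1 of them downstream of the start, a number reached by 2.65% of all windows. Nfatc4 had 3 cores, at 29, 119 and 186 bases upstream. Its window is at the start of transcript Nfatc4-201, and the 250 upstream bases lie in an intron. No window was held at the 5′ end of the gene, at 55823144. Members not called after TAC had cores too, with 3, 2 and 1 in the 5′-most windows of Nfatc2, Rcan2 and Nfatc3 and 0 in that of Ppp3r1. Of their other windows, that of Nfatc2 held 1 core and those of Rcan2 and Nfatc3 held 0. An AP-1 site lay in another Rcan2 window. Cores were therefore present at genes that were higher, at a gene that was lower and at genes that were not called after TAC.

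The resting heart held these genes at very unequal levels. Per kb of annotated exon, Myoz2, which encodes the Z-disc protein calsarcin-1 and tethers calcineurin there, was at 193 ± 10.7 CPM per kb in Ctrl sham (SD, n = 4). Rcan2 followed at 81.8 ± 3.90, the regulatory subunit Ppp3r1 at 25.1 ± 1.37, Rcan1 at 14.3 ± 2.23, and the catalytic subunits Ppp3cb and Ppp3ca at 9.32 ± 0.537 and 6.93 ± 0.295. The NFAT genes came last, with Nfatc1 at 2.08 ± 0.121, Nfatc3 at 1.98 ± 0.0773, Nfatc2 at 1.48 ± 0.199 and Nfatc4 at 0.766 ± 0.0994 CPM per kb. The ranges over the 4 libraries were separate at every step of this order except between Nfatc1 and Nfatc3. In KO TAC hearts Rcan1, at 41.0 ± 5.05 CPM per kb, stood above Ppp3r1, at 22.7 ± 0.740, whereas in Ctrl TAC hearts it was at 32.0 ± 15.8 against 23.2 ± 1.27. Exon length was taken from all annotated transcripts of a gene, so the level of a gene whose long transcripts are rarely used is understated.

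**Figure D1:**
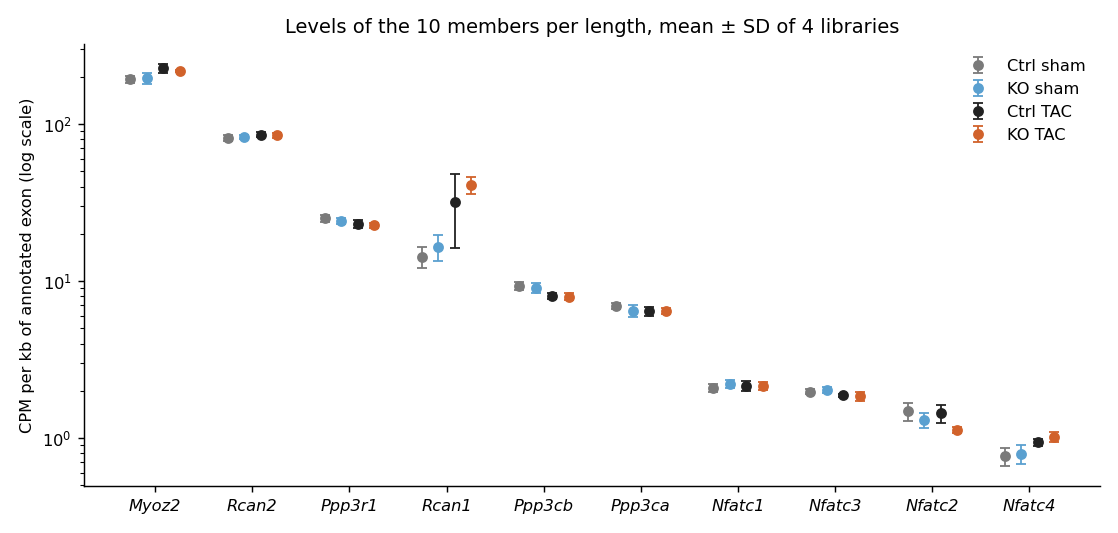
Level of the 10 members per length in the 4 groups, as CPM per kb of annotated exon on a log scale (points, mean; bars, SD of 4 libraries). Genes are ordered by their level in Ctrl sham, from Myoz2 at 193 to Nfatc4 at 0.766 CPM per kb, and Rcan1 is the member whose groups lie farthest apart.

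To ask how pressure load changed the pathway, TAC was compared with sham within each genotype. In Ctrl hearts 3 of the 10 members passed the edgeR quasi-likelihood test at an adjusted p under 0.05, against 20.0% of all genes tested. Rcan1 and Myoz2 were higher (10.4% of all genes were called higher) and Ppp3cb was lower (9.6% called lower). In KO hearts 3 members passed, against 34.3% of all genes. Rcan1 and Nfatc4 were higher (17.8% of all genes) and Ppp3cb was lower (16.5% of all genes). The share of members called was thus near that of all genes in either genotype, and the median log2 fold change of the 10 members was 0.01 in Ctrl and -0.02 in KO, beside 0.00 over all genes in both comparisons. Apart from Rcan1, the log2 fold changes of the members lay between -0.21 and 0.30 in Ctrl and between -0.21 and 0.36 in KO. TAC and sham libraries did not overlap for 3 of the 10 members in Ctrl, beside 20.5% of all genes tested. In KO they did not overlap for 4 members, beside 34.6% of all genes, so these shares were near those of all genes as well. The 2 comparisons share no library. In bulk tissue, fewer cells of a type and less RNA per cell cannot be told apart.

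**Figure D2:**
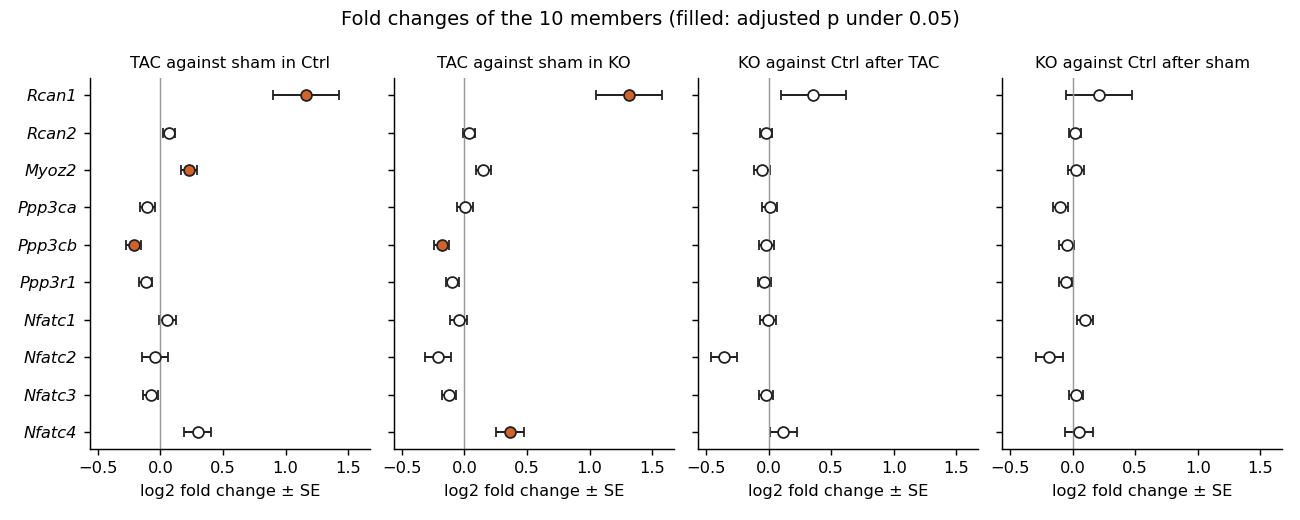
Log2 fold change ± SE of the 10 members in 4 comparisons (edgeR, 16 libraries). Filled points have an adjusted p under 0.05 over 18275 genes. Rcan1 stands at 1.16 and 1.31 in the comparisons of TAC with sham, every other member lies between -0.36 and 0.36, and no member is filled in the comparisons of KO with Ctrl.

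Rcan1, the feedback inhibitor of calcineurin, had the largest change of the 10 members. Its level was 36.6, 45.8, 41.2 and 52.8 CPM in the 4 Ctrl sham libraries and 171, 72.9, 66.3 and 84.4 CPM in the 4 Ctrl TAC libraries. The groups did not overlap, as for 20.5% of all genes tested, and Ctrl TAC 1 was far above the others. The log2 fold change was 1.16 (SE 0.26, adjusted p = 0.00702), or 2.24-fold. Without Ctrl TAC 1 it was 0.76 (SE 0.15, adjusted p = 0.00295), a smaller change with a smaller error, and with only the 8 Ctrl libraries fitted it was 1.16 with an adjusted p of 0.0542 by edgeR. In the KO animals Rcan1 was at 48.1, 51.3, 63.4 and 41.0 CPM after sham and at 123, 129, 146 and 108 CPM after TAC. These groups did not overlap either, as for 34.6% of all genes tested, and the last value belongs to the library labelled KO TAC 4. The log2 fold change was 1.31 (SE 0.26, adjusted p = 0.00168), or 2.48-fold, and 1.38 (adjusted p = 0.00277) without that library. The genotype by surgery interaction of Rcan1 was 0.15 (SE 0.37, adjusted p = 0.925), which did not pass the test.

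Rcan2, the related inhibitor that is the more abundant in heart, was at 374, 335, 355 and 366 CPM in Ctrl sham and at 394, 369, 368 and 370.1 CPM in Ctrl TAC. The groups overlapped, and the log2 fold change was 0.07 (SE 0.05, adjusted p = 0.346). In KO hearts it was 0.03 (SE 0.05, adjusted p = 0.628), from 362 ± 11.8 to 371 ± 15.2 CPM. Rcan3, the remaining gene of the family, was at 10.8 ± 0.983 CPM in Ctrl sham and 11.4 ± 0.479 in Ctrl TAC (log2 fold change 0.07, adjusted p = 0.531), and rose from 10.4 ± 0.498 to 12.9 ± 0.564 CPM in KO hearts (0.31, SE 0.07, adjusted p = 0.00173). The interaction of Rcan3 was 0.24 (SE 0.10, adjusted p = 0.364 by edgeR) and did not pass. Per kb, Rcan1 therefore made up 14.9% ± 2.16 of the Rcan1 and Rcan2 signal in Ctrl sham, 16.6% ± 2.27 in KO sham, 26.2% ± 8.12 in Ctrl TAC and 32.5% ± 2.63 in KO TAC. No test was run on these shares.

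**Figure D3:**
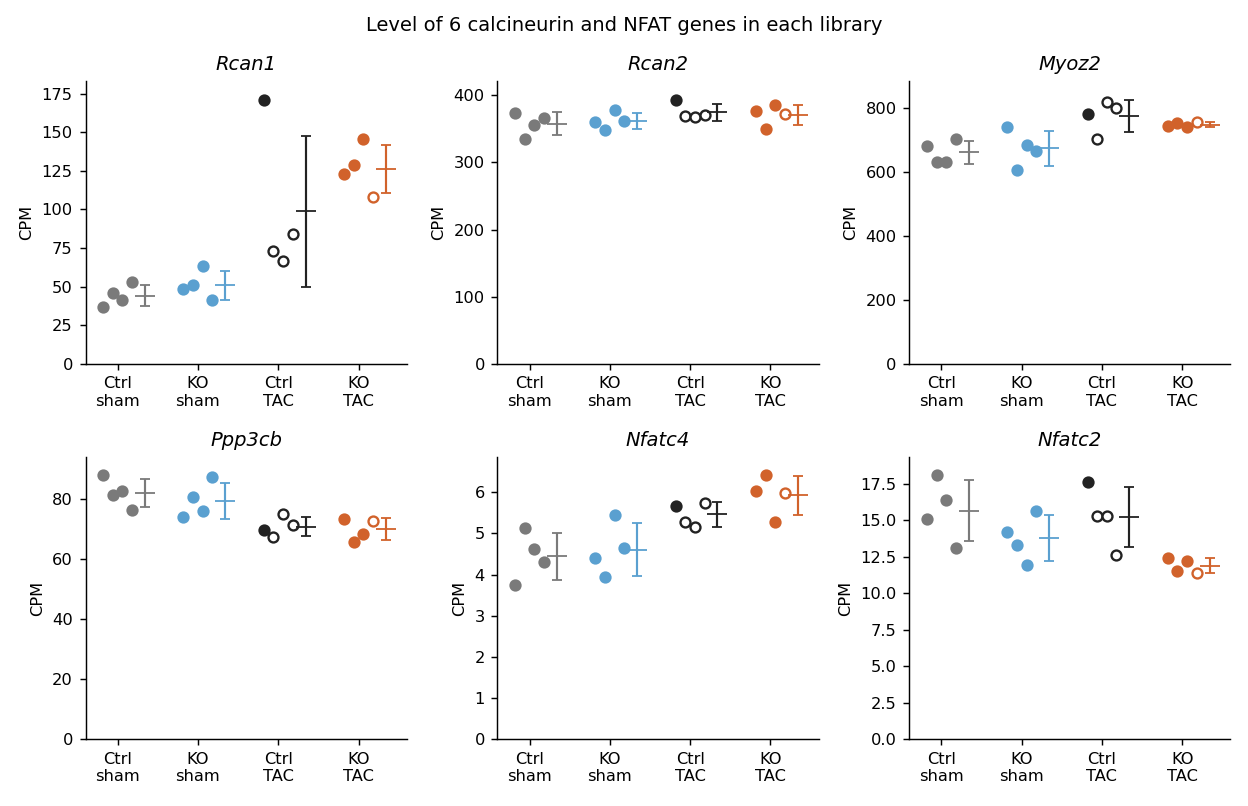
CPM of 6 members in each of the 16 libraries (points), with mean and SD per group (bars to the right of the points). Open points are the libraries whose animal numbers begin with 25. Rcan1 lies between 36.6 and 63.4 CPM in the sham libraries and between 66.3 and 171 CPM in the TAC libraries, while Rcan2 stays between 335 and 394 CPM throughout.

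Myoz2 was at 681, 629, 630.3 and 701 CPM in Ctrl sham and at 781, 701, 817 and 797 CPM in Ctrl TAC. Only the lowest TAC value, that of Ctrl TAC 2, reached into the sham range. The log2 fold change was 0.23 (SE 0.06, adjusted p = 0.0121), a rise of 17.2%, and with the series of animal numbers as a term in the model it was 0.23 with an adjusted p of 0.0781 by edgeR. In KO hearts Myoz2 was at 738, 605, 685 and 664 CPM after sham and at 742, 750.3, 740.3 and 755 CPM after TAC, close together and all above the sham values. The log2 fold change was 0.15 (SE 0.06, adjusted p = 0.0654) and did not pass the test. It passed without KO sham 1, the highest sham library, at 0.20 (adjusted p = 0.0228), and without Ctrl TAC 2 (adjusted p = 0.0432).

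The catalytic subunits are encoded by Ppp3ca, Ppp3cb and Ppp3cc, and the regulatory subunit of somatic tissues by Ppp3r1. Ppp3cb was at 87.9, 81.4, 82.6 and 76.4 CPM in Ctrl sham and at 69.6, 67.5, 75.0 and 71.4 CPM in Ctrl TAC, with no overlap. It fell by 13.7% (log2 fold change -0.21, SE 0.06, adjusted p = 0.0158), and the call was lost without Ctrl sham 1 (-0.18, adjusted p = 0.0652). In KO hearts it went from 73.9, 80.6, 76.0 and 87.2 CPM to 73.2, 65.7, 68.4 and 72.6 CPM, ranges that are only just separate. That fall of 11.8% passed the test (log2 fold change -0.18, SE 0.06, adjusted p = 0.0233) and was -0.20 (adjusted p = 0.0274) without the library labelled KO TAC 4. It did not pass when KO sham 2, KO sham 4, KO TAC 2 or KO TAC 3 was left out, with adjusted p values of 0.0553, 0.0970, 0.0776 and 0.0601 by edgeR.

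Ppp3ca, another catalytic subunit, stood on the log2 scale at -0.10 (SE 0.06, adjusted p = 0.260) after TAC in Ctrl and at 0.00 (SE 0.06, adjusted p = 0.971) in KO. Its 16 values lay between 57.4 and 73.3 CPM. Ppp3r1 was at 81.2 ± 4.42 CPM in Ctrl sham and 74.9 ± 4.09 in Ctrl TAC (log2 fold change -0.12, adjusted p = 0.127), and at 78.1 ± 3.06 and 73.1 ± 2.39 in KO sham and KO TAC (-0.10, adjusted p = 0.169). Ppp3r1 shares 462 exon bases with Wdr92 on the same strand, so part of its counts could be split with that gene. Ppp3cc was at 22.7 to 24.1 CPM on average in every group, with adjusted p values of 0.355 and 0.388 for TAC in Ctrl and KO. Ppp3r2, the testis form of the regulatory subunit, had 0 counts in all 16 libraries. Within the 3 catalytic subunits, per kb, Ppp3cb made up 39.0% ± 1.67 in Ctrl sham and 35.7% ± 1.42 in Ctrl TAC, and 39.0% ± 2.22 and 35.4% ± 0.628 in KO sham and KO TAC. Per kb, Ppp3cc made up 32.0% ± 0.748 and Ppp3ca 29.0% ± 1.47 in Ctrl sham. In Ctrl TAC and KO TAC the share of Ppp3cc was 35.8% ± 2.23 and 35.6% ± 0.816. On raw counts Ppp3cc made up 13.1% and Ppp3ca 39.7% in Ctrl sham, so the order of these 2 genes depended on the scale.

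Of the NFAT factors, which carry the signal to the nucleus, Nfatc4 was the least abundant and the only one called after TAC. It was at 3.74, 5.12, 4.61 and 4.30 CPM in Ctrl sham and at 5.67, 5.27, 5.15 and 5.75 CPM in Ctrl TAC. The groups did not overlap, but Ctrl sham 2 came close to Ctrl TAC 3, and the log2 fold change, at 0.30 (SE 0.11, adjusted p = 0.0688), did not pass. Without Ctrl sham 2 it was 0.37 (adjusted p = 0.0336), and DESeq2 gave 0.30 with an adjusted p of 0.0478. In KO hearts Nfatc4 was at 4.39, 3.94, 5.46 and 4.66 CPM after sham and at 6.03, 6.41, 5.28 and 5.98 CPM after TAC, with KO sham 3 above KO TAC 3. The rise of 28.5% (log2 fold change 0.36, SE 0.11, adjusted p = 0.0165) was 0.36 (adjusted p = 0.0350) without the library labelled KO TAC 4. It did not pass without KO sham 2 (adjusted p = 0.0636) or without KO TAC 2 (adjusted p = 0.0516), nor with animal numbers starting with 33 as a term (adjusted p = 0.122). At 220 to 496 counts per library, Nfatc4 had the fewest reads of the members.

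Nfatc1, best known from valve endothelium, was at 14.7 to 18.1 CPM in all 16 libraries, with log2 fold changes of 0.06 and -0.05 after TAC in Ctrl and KO (adjusted p = 0.611 and 0.635). Nfatc3, the family member tied to hypertrophy in mouse knockouts, was at 23.2 ± 0.906 CPM in Ctrl sham, 21.9 ± 0.558 in Ctrl TAC, 23.6 ± 1.03 in KO sham and 21.6 ± 1.56 in KO TAC. Its log2 fold changes were -0.08 (SE 0.06, adjusted p = 0.370) and -0.13 (SE 0.06, adjusted p = 0.0944). It shares 219 exon bases with Esrp2 on the opposite strand, and whether counting used the strand is not given. Nfatc2 was at 15.1, 18.1, 16.4 and 13.1 CPM in Ctrl sham and at 17.6, 15.3, 15.3 and 12.6 CPM in Ctrl TAC, ranges that overlap almost fully (log2 fold change -0.04, SE 0.10, adjusted p = 0.827).

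The effect of the genotype was then asked within each operation. After sham, no member passed the edgeR test, against 0.0% of all genes (0 of 18275 genes, with 479 at an unadjusted p under 0.05 and 3 called by DESeq2). The 10 log2 fold changes lay between -0.19, for Nfatc2, and 0.21, for Rcan1, all with an adjusted p of 1.00, and none had an unadjusted p under 0.05. After TAC, no member passed by edgeR, against 2.68% of all genes, although 1 member, Nfatc2, had an unadjusted p under 0.05 and was called by DESeq2. For the interaction no member passed, against 0.0109% of all genes, and DESeq2 called none either. The lowest adjusted p of a member for the interaction was 0.689, for Ppp3ca at 0.11 (SE 0.09), and none had an unadjusted p under 0.05.

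Nfatc2, an NFAT factor studied mostly in lymphocytes, was at 12.4, 11.5, 12.2 and 11.4 CPM in KO TAC, all 4 below the 12.6 to 17.6 CPM of Ctrl TAC. It was the only 1 of the 10 members whose groups did not overlap in this comparison, a share near the 10.5% of all genes tested that did not overlap (1.32% of all genes were called lower and 1.36% higher). The nearest libraries, Ctrl TAC 4 and KO TAC 1, were close to each other. The log2 fold change was -0.36 (SE 0.11, adjusted p = 0.0739), or 21.8% lower. Leaving out Ctrl TAC 4 gave -0.43 (adjusted p = 0.0268), DESeq2 gave -0.36 (adjusted p = 0.0301), and -0.33 (adjusted p = 0.140) remained when the library labelled KO TAC 4 was left out. Nfatc2 was also at 14.2, 13.3, 11.9 and 15.6 CPM in KO sham, which put KO sham at -0.19 (SE 0.11, adjusted p = 1.00) relative to Ctrl sham on the log2 scale. TAC against sham in KO was -0.21 (SE 0.11, adjusted p = 0.132), and the Nfatc2 interaction was -0.17 (SE 0.15, adjusted p = 0.720). A share of 18.3% ± 0.894 of the NFATc signal per kb came from Nfatc2 in KO TAC, beside 22.4% ± 2.57 in Ctrl TAC, while the share of Nfatc4 was 16.6% ± 1.42 and 14.7% ± 0.972.

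For Rcan1, the comparison of genotypes after TAC rested on a single animal. The log2 fold change was 0.36 (SE 0.26, adjusted p = 0.502), with 3 of the 4 Ctrl TAC libraries below all KO TAC libraries and Ctrl TAC 1 above all of them. Without Ctrl TAC 1 it was 0.76 (SE 0.15, adjusted p = 0.0233), and leaving out the library labelled KO TAC 4 gave 0.43 (adjusted p = 0.476). Within the animals whose numbers begin with 3, Ctrl TAC 1 had 171 CPM and KO TAC 1, 2 and 3 had 123, 129 and 146 CPM, with Ctrl above KO. Within those beginning with 25, Ctrl TAC 2, 3 and 4 had 72.9, 66.3 and 84.4 CPM and the library labelled KO TAC 4 had 108 CPM, with Ctrl below. The order of the genotypes was therefore opposite in the series, each of which has a single library on one side. With the series as a term in the model the log2 fold change of Rcan1 was 0.08 (SE 0.19, adjusted p = 0.903), and its response to TAC was 1.63 (adjusted p = 2.7e-04) in Ctrl and 1.51 (adjusted p = 3.6e-05) in KO. As all sham animals belong to the series beginning with 3, the response to TAC could be set against sham within that series only, at 171 CPM in Ctrl and 123 to 146 CPM in KO against 36.6 to 63.4 CPM in all sham libraries.

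No member's call changed in any comparison when the library labelled KO TAC 4 was left out. For the members not yet given in this way, TAC against sham in KO was then 0.15 for Myoz2, 0.03 for Rcan2, -0.01 for Ppp3ca, -0.11 for Ppp3r1, -0.05 for Nfatc1, -0.19 for Nfatc2 and -0.16 for Nfatc3 on the log2 scale. The lowest adjusted p of these by edgeR was 0.0534, for Nfatc3.

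**Figure D4:**
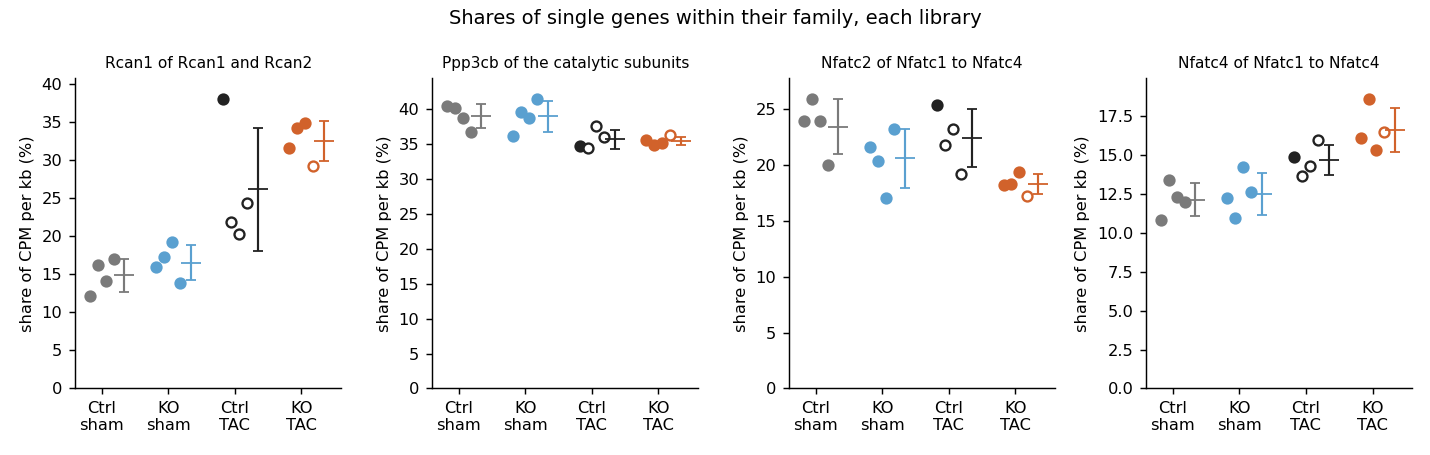
Share of single genes in the summed CPM per kb of their family, in each library (points) with mean and SD per group (bars to the right). The panels show Rcan1 of Rcan1 and Rcan2, Ppp3cb of the 3 catalytic subunits, and Nfatc2 and Nfatc4 of the 4 NFATc genes, and open points mark animal numbers that begin with 25. The share of Rcan1 is 12.2% to 19.2% in sham and 20.4% to 38.1% in TAC libraries.

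The wider pathway was followed in 5 lists with 78 genes, none of them a member. No gene of these lists was called by edgeR for the genotype by surgery interaction, beside 0.0109% of all genes. A call in only 1 genotype is therefore not a difference in response that passed a test. In the list of other calcineurin subunits, anchors and inhibitors, 21 of 23 genes were tested. After TAC 5 rose and 2 fell in Ctrl (10.4% and 9.6% of all genes), and 10 rose and 2 fell in KO (17.8% and 16.5% of all genes). The medians were 0.08 and 0.26 on the log2 scale beside 0.00 over all genes. Csrp3, the muscle LIM protein of the Z-disc, went from 739.8 ± 35.5 to 1274 ± 59.4 CPM in Ctrl (log2 fold change 0.78, SE 0.06, adjusted p = 2.3e-07) and rose by 0.54 (SE 0.06, adjusted p = 3.7e-06) in KO. Homer2, a scaffold protein that competes with calcineurin for NFAT, rose by 0.44 (SE 0.07, adjusted p = 2.0e-04) in Ctrl and by 0.26 (adjusted p = 0.00642) in KO. Tbc1d10c, known as the calcineurin inhibitor carabin, fell in both genotypes, from 3.09 ± 0.333 to 0.842 ± 0.223 CPM in Ctrl (-1.88, SE 0.29, adjusted p = 1.5e-04) and from 2.74 ± 0.724 to 0.778 ± 0.343 CPM in KO (-1.83, SE 0.29, adjusted p = 9.1e-05). All 8 of its TAC libraries, at 0.326 to 1.14 CPM, were below all 8 sham libraries, at 1.81 to 3.36 CPM. Within a genotype, TAC and sham did not overlap for 20.5% of all genes in Ctrl and 34.6% in KO. Tesc, or tescalcin, a calcium-binding relative of the regulatory subunit, fell as well (-0.33 and -0.44). Cib1, a calcium-binding protein that anchors calcineurin at the sarcolemma, rose by 0.35 in Ctrl (adjusted p = 0.00482) and by 0.51 in KO (adjusted p = 8.7e-05). Between the genotypes after TAC 1 gene of the list was called, beside 2.68% of all genes. It was Ppia, the cyclophilin that cyclosporin binds, which was 0.33 higher in KO (SE 0.09, adjusted p = 0.0491), at 148 ± 10.5 against 118 ± 19.0 CPM.

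Of 17 channel, store-release and calmodulin genes, 2 rose and 2 fell in Ctrl, near the shares of all genes (10.4% and 9.6%), and 4 rose and 2 fell in KO (17.8% and 16.5% of all genes). Cacna1c, the pore of the cardiac L-type channel, fell from 286 ± 8.05 to 221 ± 23.0 CPM in Ctrl (log2 fold change -0.37, SE 0.07, adjusted p = 0.00117) and by 0.35 on the log2 scale in KO (adjusted p = 8.4e-04). With the series of animal numbers as a term, no gene of this list was called lower in Ctrl, so that the calls of Cacna1c and Orai3 there were lost. The store-operated channel gene Orai3 was also lower (-0.30 and -0.32), whereas Orai2 was higher (0.59 and 0.98) from a low level of 1.31 ± 0.215 CPM in Ctrl sham. Calm2, which encodes calmodulin, rose by 0.40 (adjusted p = 1.1e-05) in KO (0.09, adjusted p = 0.235, in Ctrl). It was the only gene of this list called between the genotypes after TAC (2.68% of all genes), at 109 ± 2.64 CPM in KO and 92.1 ± 2.66 in Ctrl (0.24, SE 0.05, adjusted p = 0.0210).

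Among 13 kinase and export genes that counter NFAT, none rose and 4 fell in Ctrl (10.4% and 9.6% of all genes), and 3 rose and 5 fell in KO (17.8% and 16.5% of all genes), with no call between the genotypes. Mapk14, the kinase p38 alpha, was lower in both (-0.32 and -0.41, adjusted p = 0.00235 and 1.3e-04). Csnk1e fell by 0.33 (adjusted p = 1.1e-04) in Ctrl and by 0.21 (adjusted p = 0.00226) in KO. Dyrk2 was at -0.26 in both, with adjusted p values of 0.0725 in Ctrl and 0.0494 in KO by edgeR. Lrrk2 and Csnk1d rose by 0.39 (adjusted p = 0.00202) and 0.20 (adjusted p = 0.00278) in KO, beside 0.15 (adjusted p = 0.264) and 0.11 (adjusted p = 0.0913) in Ctrl.

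In the list of NFAT relatives and partner factors, 1 of 15 genes rose and 2 fell in Ctrl (10.4% and 9.6% of all genes). In KO 7 rose and 2 fell (17.8% and 16.5% of all genes), and 1 was called between the genotypes after TAC (2.68% of all genes). Mef2a fell in both (-0.45 and -0.28), as did Gata6 (-0.23 and -0.35). Jund rose by 0.30 in Ctrl and by 0.34 in KO. In KO the largest rises were those of the AP-1 genes Fos (1.91, SE 0.60, adjusted p = 0.0241) and Junb (1.35, SE 0.25, adjusted p = 7.96e-04), which in Ctrl were at -0.68 (adjusted p = 0.494) and 0.38 (adjusted p = 0.335). The interaction did not pass by edgeR, at 2.59 (SE 0.85, adjusted p = 0.294) for Fos and 0.98 (SE 0.35, adjusted p = 0.332) for Junb. Fosl2, another AP-1 gene, was at 51.8 ± 16.2 CPM in KO TAC and 22.8 ± 2.73 in Ctrl TAC (1.18, SE 0.24, adjusted p = 0.0239). Its values in the KO TAC libraries were 55.7, 50.6, 70.03 and, in the library labelled KO TAC 4, 30.9 CPM. Fos was at 4.99, 6.89 and 10.3 CPM in KO TAC 1, 2 and 3, at 1.86 CPM in the library labelled KO TAC 4 and at 1.18 to 2.08 CPM in Ctrl TAC. After sham it was at 1.00 to 2.01 CPM in KO and at 0.974, 5.91, 0.997 and 1.70 CPM in Ctrl. The negative Fos value in Ctrl thus went with the high level of Ctrl sham 2. Junb was also highest in Ctrl sham 2, at 15.9 CPM beside 6.38 to 8.57 CPM in the other Ctrl sham libraries. Nfat5, the NFAT relative that does not respond to calcineurin, was not called in any comparison, with log2 fold changes of -0.01 to 0.13.

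The list of genes reported as calcineurin or NFAT targets moved the most. Of 11 genes tested, 7 rose and none fell in Ctrl (10.4% and 9.6% of all genes), and 8 rose and none fell in KO (17.8% and 16.5% of all genes). The medians were 1.84 and 1.51 on the log2 scale. Nppa, which encodes atrial natriuretic peptide, went from 130.4 ± 29.9 to 1025 ± 499 CPM in Ctrl (2.98, SE 0.34, adjusted p = 5.0e-05) and from 146 ± 35.1 to 2322 ± 242 CPM in KO (3.99, SE 0.35, adjusted p = 2.1e-06). Nppb, the B-type peptide, rose by 2.49 (SE 0.37, adjusted p = 4.1e-04) in Ctrl and by 2.55 (adjusted p = 1.6e-04) in KO. Egr3, a zinc-finger factor, rose from 1.06 ± 0.361 to 6.64 ± 0.740 CPM in KO (2.64, SE 0.25, adjusted p = 5.1e-07) and by 1.97 (adjusted p = 4.3e-05) in Ctrl. It was the only one of these called between the genotypes after TAC (2.68% of all genes), where it was at 3.39 ± 0.709 CPM in Ctrl (0.97, SE 0.23, adjusted p = 0.0353). Every one of its KO TAC libraries, at 5.81 to 7.60 CPM, was above the Ctrl TAC libraries, at 2.57 to 4.29 CPM. These groups did not overlap for 10.5% of all genes tested. In the same comparison the median of the list was 0.44 beside 0.00 over all genes. These genes also answer to other pathways and were listed from general knowledge.

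**Figure D5:**
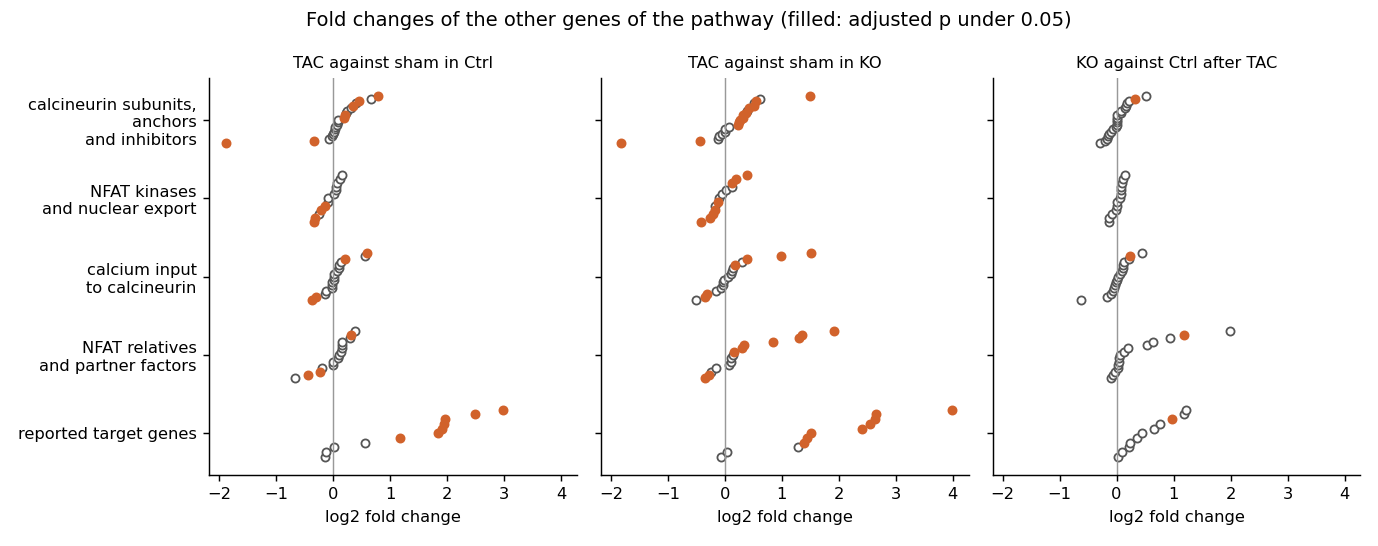
Log2 fold change of every tested gene of the 5 lists in 3 comparisons (points; filled, adjusted p under 0.05 by edgeR), sorted by size within each list. The list of reported targets has 7 filled points in Ctrl and 8 in KO, all to the right of 0, and the comparison of KO with Ctrl after TAC has 1 filled point in each of 4 lists.

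Leaving out the library labelled KO TAC 4 left 10 rises and 2 falls among the other calcineurin genes after TAC in KO, 2 rises and 4 falls among the kinases, 7 rises and 1 fall among the partner factors and 8 rises among the targets. In the comparison of genotypes after TAC it removed the call in the calcineurin list, left 1 in the calcium list and 1 among the targets, and gave 3 in place of 1 among the partner factors. Leaving out Ctrl TAC 2 together with the library labelled KO TAC 4 left 1 call in that comparison, among the partner factors, and none in the calcium list or among the targets, so that the calls of Calm2 and Egr3 were lost. Without Ctrl TAC 1 the only call left was 1 in the calcium list, and with the series of animal numbers as a term there was none in any of the 5 lists.

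The cell type markers moved with the operation. Over all genes, 10.4% were called higher and 9.6% lower after TAC in Ctrl, and 17.8% and 16.5% in KO. In KO TAC against Ctrl TAC, 1.36% were called higher and 1.32% lower. Over all genes that comparison had 489 calls, and 12 with the series of animal numbers as a term. The marker calls are given with all 16 libraries and without that term only. The summed level of 8 fibroblast markers was 579 to 706 CPM in Ctrl sham, 610.0 to 645 in KO sham, 1123 to 1594 in Ctrl TAC and 1828 to 1995 in KO TAC, with 5 of 8 called higher in Ctrl and 8 of 8 in KO, and 2 called higher in KO TAC than in Ctrl TAC. The sum of 8 cardiomyocyte markers, which include the cardiac myosin Myh6 and titin, was 47106 to 54277 CPM in Ctrl sham, 47811 to 53479 in KO sham, 42433 to 47604 in Ctrl TAC and 36032 to 38926 in KO TAC, with 4 of 8 and 5 of 8 called lower after TAC, 2 and 1 called higher, and 2 lower in KO TAC than in Ctrl TAC. The 8 macrophage markers summed to 136 to 173 CPM in Ctrl sham, 128 to 151 in KO sham, 194 to 207 in Ctrl TAC and 179.9 to 240.4 in KO TAC, with 4 of 8 called higher after TAC in Ctrl, 7 of 8 in KO, and 1 lower in KO TAC than in Ctrl TAC. Endothelial markers (687 to 864 CPM in all libraries) and smooth muscle and pericyte markers (670.3 to 784 CPM) had sums that overlapped in all 4 groups. Of the 8 smooth muscle and pericyte markers 3 were called higher after TAC in Ctrl and 4 in KO, and of the endothelial markers 0 and 1. T cell markers summed to 0.752 to 2.77 CPM, with Cd5 under 0.1 CPM on average, and skeletal muscle markers to 1.36 to 6.07 CPM. The part of these shifts in the values of Rcan1, Nfatc4, Ppp3cb, Nfatc2 and the listed genes was not tested. Myoz2 was higher after TAC in Ctrl, where the cardiomyocyte sums had a lower mean but overlapped those of sham. The part of cell composition in its value was not tested either.

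Over the 16 libraries, the genes whose log2 CPM followed Rcan1 most closely were Enah, an actin regulator (Pearson r = 0.981), Plekho1 (0.978) and Nbl1 (0.977). Ctrl TAC 1, where Rcan1 was at 171 CPM, is among these libraries, and r was not computed without it. For Rcan2 the closest were Atf6, a sensor of protein folding in the endoplasmic reticulum (0.868), Ttll11 (0.853) and Afg3l2 (0.827), and for Myoz2 Mrpl43 (0.922), Sra1 (0.883) and Ankra2 (0.878). Members and genes with a predicted-gene, Rik or accession-type name, or with no symbol, were not ranked, so the pool was smaller than the 18275 genes tested. These are the top values of that pool over libraries that share depth and tissue composition, and are given as a description. Differences between the groups enter r as well. With the group means removed, r was 0.934 for Enah, 0.904 for Plekho1 and 0.915 for Nbl1. It was then 0.883 for Atf6, 0.809 for Ttll11 and 0.774 for Afg3l2, and 0.791 for Mrpl43, 0.735 for Sra1 and 0.756 for Ankra2.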

How the data were processed

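Poly(A)-selected RNA (TruSeq) from 16 mouse hearts was sequenced as paired-end reads. The authors deposited raw read counts per Ensembl gene, with no normalization. Their processing notes name cutadapt 2.3, FastQC, HISAT2 2.1.0, edgeR 3.26.1 and GRCm38. The counting program and its use of strand are not given in the sources used here. Replicates were numbered in sample order and pair nothing, and nothing beyond separate animal numbers says how the samples arose, so p values measure the spread between these samples. The animal number in the titles matched columns to samples.

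Gene names and positions came from GENCODE M21, which held 55227 (99.5%) of the genes, the others carrying 0.00355% of the counts. Counts were filtered with filterByExpr and scaled by TMM in edgeR 4.0.16 (R 4.3.3). A robust quasi-likelihood model with a mean per group was fitted to all 16 libraries and tested in 5 contrasts. P values were adjusted over 18275 genes by Benjamini-Hochberg, and 0.05 was the threshold. The SE is the absolute log2 fold change over the square root of F. The pipeline was tested on simulated data for TAC against sham in Ctrl. It recovered 68% of 100 genes changed by 1 on the log2 scale and 47% of 100 changed by 0.5, with 3 false calls. The random seed of this test was changed, and its floor for recovery lowered, after results were known. Figures were drawn with matplotlib 3.10.9.

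Alternatives were RLE scaling, DESeq2 1.42.0, other filters (at least 1 count in any library, or 10 in every library), an adjusted p under 0.01, terms for animal numbers starting with 25 or 33, fits to 8 libraries, leaving out each library, and leaving out Ctrl TAC 2 and the library labelled KO TAC 4 together. Shares were computed per kb and on raw counts.

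The members and lists were chosen with earlier results of these data known. Named genes were all members, Ppp3cc, Ppp3r2, Rcan3 and Nfat5, and from each list the 2 largest called rises and 2 largest called falls per comparison of 2 groups at an average log2 CPM of at least 0. A gene that this rule names is not reported here. For likeness, the 3 genes with the highest r of log2 CPM (prior count 2) were taken. Members and tested genes without a symbol or with a predicted-gene, Rik or accession-type name were left out of that ranking.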

Additional observations from a re-analysis of the deposited data

Results flagged for a closer look

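Among 40 sets of 4 libraries (10 members in 4 groups) 1 had a library that stood apart from the other 3. Rcan2 in Ctrl TAC was at 394 CPM in Ctrl TAC 1 and between 368 and 370.1 CPM in the others, so that the gap took 0.907 of the range. By chance about 1 in 20 such sets would stand apart in this way. No interaction of a member passed the test.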

How the results depend on the processing

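Of 50 values (10 members in 5 comparisons), 22 kept their direction and their side of the threshold under all alternatives run. The number of members called was 3 in both comparisons of TAC with sham and 1 in each at an adjusted p under 0.01. Leaving out single libraries gave 2 to 4 members called in Ctrl and 1 to 4 in KO. For KO against Ctrl after TAC it was 0, but 1 (Nfatc2) with animal numbers starting with 33 as a term and 1 with DESeq2, and 0 to 1 without single libraries. The Rcan1 response in Ctrl, with 8 libraries fitted alone, was 1.16 at an adjusted p of 0.0542. With animal numbers starting with 33 as a term, Nfatc4 after TAC in KO was 0.33 (adjusted p = 0.122) and Nfatc2 -0.43 (adjusted p = 0.0122). Without Ctrl TAC 2 and the library labelled KO TAC 4 together, Ppp3cb in Ctrl was -0.19 (adjusted p = 0.0515), and without KO sham 3 Nfatc4 in Ctrl had an adjusted p of 0.0499. Over all genes, KO against Ctrl after TAC gave 489 calls, 19 at the stricter threshold, 285 without filter, 154 with 8 libraries, 12 with the series starting with 25 as a term, 109 without both libraries and 1144 with DESeq2 (63 to 733 without single libraries). TAC in Ctrl gave 3652 calls and 2076 at the stricter threshold. The interaction gave 2 calls, 1 without filter, 115 with DESeq2 and 0 at the stricter threshold, with either term or without both libraries (0 to 18 without single libraries). KO against Ctrl after sham gave 0 calls, 2 with 8 libraries, 1 without both libraries and 3 with DESeq2 (0 to 2 without single libraries). The causes were not tested. The filters and the stricter threshold were run for counts of calls only. No paired analysis was possible because the labels give no replicate numbers.

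A sign changed in 43 fits of 18 values, in none of which the member was called, and the largest such value was -0.13 (Rcan1, interaction, series as a term). With that term Nfatc2 after TAC in Ctrl was 0.094 and Ppp3ca in KO -0.020, and KO against Ctrl after TAC was 0.011 for Nfatc1, 0.0092 for Ppp3cb, 0.025 for Nfatc3 and 0.019 for Ppp3r1. With the numbers starting with 33 as a term, Nfatc1 after TAC in KO was 0.0012, KO against Ctrl after sham was -0.0077 for Myoz2, 0.031 for Ppp3cb and -0.014 for Nfatc3, and the interaction was -0.048 for Ppp3cb and -0.017 for Ppp3r1. Without Ctrl TAC 2 and the library labelled KO TAC 4, Ppp3ca after TAC in KO was -0.0063, Nfatc1 in KO against Ctrl after TAC 0.040 and the interaction of Ppp3cb -0.011. Leaving out single libraries gave -0.12 to 0.037 for Nfatc2 after TAC in Ctrl and -0.049 to 0.041 for Ppp3ca in KO. For KO against Ctrl after TAC the ranges were -0.039 to 0.045 for Nfatc1, -0.035 to 0.011 for Rcan2, -0.040 to 0.013 for Ppp3cb, -0.051 to 0.027 for Nfatc3 and -0.025 to 0.054 for Ppp3ca. After sham they were -0.021 to 0.075 for Myoz2, -0.038 to 0.13 for Nfatc4 and -0.012 to 0.041 for Rcan2, and for the interaction -0.012 to 0.16 for Nfatc4, -0.0063 to 0.078 for Ppp3cb and -0.016 to 0.048 for Ppp3r1.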
